A study of Caenorhabditis elegans with 2 samples.

Results

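The miRNA genes of Caenorhabditis elegans were examined for binding of SNPC-4, a transcription factor of small RNA genes. All genes of biotype miRNA in the WBcel235 annotation (the assembly of ce11) were taken, which gave 261 of 46926 annotated genes. Each gene was given the nearest SNPC-4 summit within 300 bp of its annotated 5′ end, first from the list of reproducible peaks and otherwise from the longer list of pooled candidate regions. The choice of genes used the annotation only and no measured value, but it was made with earlier results of these data known.

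Chromatin immunoprecipitation with sequencing (ChIP-seq) was carried out on whole hermaphrodites of strain YL487, whose transgene adds GFP and FLAG to the C terminus of SNPC-4. The animals were young adults, collected 60 hours after larvae starved at the L1 stage were allowed to grow, and there was 1 group with 2 biological replicates. GFP was the target of the precipitating antibody according to the sample description, although the labels list snpc-4 as the antibody. No untagged or mutant group was analysed here, all cell types of the animal are mixed, and the sources used here do not give the promoter of the transgene.

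SNPC-4 corresponds to SNAPC4 of mammals, the largest protein of SNAPc, which binds the promoters of small nuclear RNA genes for transcription by RNA polymerase II or III. In C. elegans it is also known at the genes for spliced leader RNAs and at piRNA clusters. Most miRNAs are instead cut from long RNA polymerase II transcripts, first by Drosha in the nucleus and then by Dicer, while mirtrons are hairpins released by splicing of a short intron. The annotated 5′ end of a worm miRNA gene is mostly the base of the hairpin, so the start of the primary transcript may lie further upstream.

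A reproducible summit means here a summit of the 4675 pooled peaks that passed the authors' irreproducible discovery rate (IDR) threshold. The threshold is meant to favour peaks ranked alike between replicates. The list used is the one labelled optimal, and single peaks in it can differ in rank between the 2 replicate lists. Signal is the peak strength as the authors scored it, with no scale stated in the sources used here, and ranks count from the highest signal in a list. Depth per sample is unknown, since the lists hold no read counts. Values are compared within 1 list only. All intervals on shares are exact Clopper-Pearson intervals at 95% and cover counting error only.

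The sequences that carry the main results are those just before the miRNA genes with the strongest peaks, and those of a small family whose members share an upstream stretch. They are RefSeq WBcel235 sequence, written 5′ to 3′ on the strand of the miRNA gene, with 80 bases before the annotated 5′ end and the first 20 bases of the gene. Capitals mark TGTCGG on either strand (CCGACA when read on the other), GGTTCGA on either strand, and TATA lying 40 to 15 bases before the 5′ end. The first 3 are the miRNA genes with the highest signal, in order. They lie at chrIII:7278635-7278734 on the plus strand, chrX:2328914-2329013 on the plus strand and chrX:14324498-14324597 on the minus strand.
mir-2214: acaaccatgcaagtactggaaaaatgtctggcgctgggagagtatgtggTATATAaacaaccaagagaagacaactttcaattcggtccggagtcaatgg
mir-8196.1: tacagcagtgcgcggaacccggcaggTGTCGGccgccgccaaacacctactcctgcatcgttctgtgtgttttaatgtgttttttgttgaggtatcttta
mir-8196.2: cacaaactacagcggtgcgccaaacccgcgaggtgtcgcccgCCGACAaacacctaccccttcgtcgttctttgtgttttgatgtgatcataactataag

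The family of mir-1829.1, mir-1829.2, mir-1829.3 and mir-4812 is shown with mir-51, because these 5 are the miRNA genes that hold GGTTCGA in the 100 bases before the 5′ end. In the order below they lie at chrX:14977039-14977138 on the plus strand, and on the minus strand at chrX:15236404-15236503, chrX:15242830-15242929, chrX:15588351-15588450 and chrIV:11026093-11026192.
mir-1829.2: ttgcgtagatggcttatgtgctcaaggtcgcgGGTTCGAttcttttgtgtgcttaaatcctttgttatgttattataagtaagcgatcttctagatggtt
mir-1829.3: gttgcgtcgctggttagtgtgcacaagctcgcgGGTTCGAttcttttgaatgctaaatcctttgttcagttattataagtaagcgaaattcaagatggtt
mir-4812: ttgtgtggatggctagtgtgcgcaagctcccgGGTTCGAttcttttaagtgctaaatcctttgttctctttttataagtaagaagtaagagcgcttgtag
mir-1829.1: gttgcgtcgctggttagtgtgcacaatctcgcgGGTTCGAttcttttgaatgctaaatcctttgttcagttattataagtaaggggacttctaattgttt
mir-51: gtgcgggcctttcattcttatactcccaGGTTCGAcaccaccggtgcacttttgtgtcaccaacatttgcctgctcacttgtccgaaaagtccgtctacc

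The mature miRNAs of these genes are given with the seed (bases 2 to 8, which pair with target mRNAs) in capitals. The mature strands of mir-2214 come from both arms of its hairpin. The annotated mature strands of mir-8196.1 and mir-8196.2 are nearly the same RNA with shifted starts, so their seeds differ. The strands from the 3′ arm of mir-1829.2, mir-1829.3 and mir-4812 share the seed AACCACU, and that of mir-1829.1 has AACCAUU. The seed ACCCGUA marks the mir-51 family, here mir-51, mir-53 and mir-56, and mir-52 with a candidate region only.
mir-2214 5′ arm: aUUCGGUCcggagucaauggg
mir-2214 3′ arm: cAUUGACAacaacuugaccggcguu
mir-8196.1 5′ arm: cCCCAUAGaaauauuuucuauguc
mir-8196.2 5′ arm: cCCAUAGAaauauuuucuauguc
mir-1829.2 3′ arm: cAACCACUggaauuucucuauu
mir-1829.3 3′ arm: cAACCACUggaauuucucuauu
mir-4812 3′ arm: cAACCACUgcaauuucucuau
mir-1829.1 3′ arm: cAACCAUUggaauuucucuauu
mir-51 5′ arm: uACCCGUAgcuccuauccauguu
mir-53 5′ arm: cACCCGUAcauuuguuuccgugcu
mir-56 3′ arm: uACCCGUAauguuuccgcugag
mir-52 5′ arm: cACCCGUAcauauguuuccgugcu

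Most miRNA genes had no SNPC-4 summit near the 5′ end, and a few stood at very strong peaks. Of the 261 genes, 29 had a reproducible summit within 300 bp (11.1%, interval 7.57 to 15.6%), 48 had only a candidate summit (18.4%, 13.9 to 23.6%) and 184 had none (70.5%). Over all 46926 annotated genes the share with a reproducible summit was 11.6%, which lies within the interval of the miRNA genes. The share with only a candidate was 27.1% over all genes, above the upper end of its interval. Both overall shares rest largely on piRNA genes, which are 2756 of the 5424 genes with a reproducible summit and 8478 of the 12730 with only a candidate. Over the 31563 genes of other biotypes the share with a reproducible summit was 8.45%, within the interval of the miRNA genes. The share with only a candidate was 13.5% over these genes and 14.8% over protein-coding genes, both below the 18.4% of miRNA genes. The miRNA interval of 13.9 to 23.6% holds the 14.8% but not the 13.5%. The 18.4% includes miRNA genes in the piRNA domains of chromosome IV, so the sides are not matched. Whether miRNA genes outside these domains also have the higher share was not computed.

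Set beside the other biotypes, miRNA genes lay below snRNA, tRNA, spliced leader RNA and snoRNA genes. Reproducible summits lay near 75.8% of the 99 snRNA genes, 62% of the 634 tRNA genes, 60% of the 30 spliced leader RNA genes and 32.1% of the 346 snoRNA genes. Protein-coding genes had one at 6.36% of 19985 genes (6.03 to 6.71%), below the lower end of the miRNA interval, and piRNA genes at 17.9% of 15363, above its upper end. Of all bases of the nuclear chromosomes, 2.63% lay within 300 bp of a reproducible summit. None of these differences was tested.

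The piRNA domains of chromosome IV, 4.5 to 7 Mb and 13.5 to 17.2 Mb, are dense in summits, and 12.5% of their bases lay within 300 bp of one, against 1.98% of the nuclear bases outside them. In these domains 4 of 19 miRNA genes had a reproducible summit (21.1%, 6.05 to 45.6%): mir-1833, mir-78, mir-8201 and mir-8198. Of all annotated genes in the domains, 19.4% had one. Outside them the count was 25 of 242 miRNA genes (10.3%), beside 7.59% of all annotated genes outside them. Most of the 19 miRNA genes in the domains had only a candidate summit. They were mir-2217.1, mir-228, mir-790, mir-8202, mir-58.2, Y73B6A.17, mir-52, mir-798, mir-2217.4, mir-1021, mir-789.1 and mir-1832.2. The 18.4% of miRNA genes with only a candidate therefore rests partly on the domains. The split by domain was added after the data were seen.

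**Figure D1:**
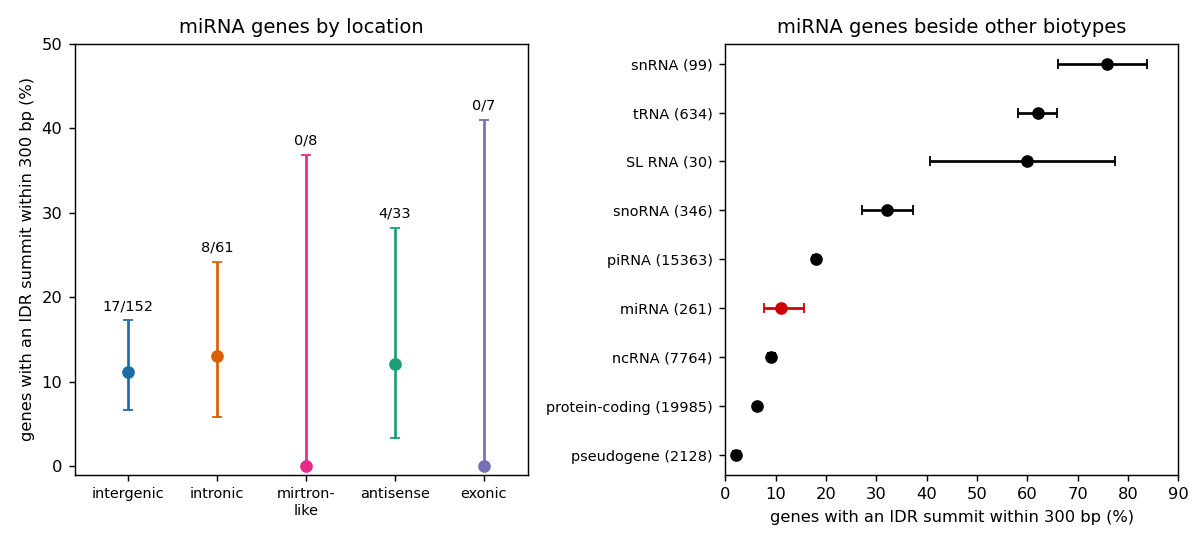
Share of genes with a reproducible (IDR) summit within 300 bp of the 5′ end, in percent, with exact 95% intervals. Left, miRNA genes by their place relative to protein-coding genes, with counts above each bar; the 5 intervals overlap. Right, miRNA genes (red) and other biotypes (black), with the number of genes in brackets; the miRNA share of 11.1% lies between those of piRNA (17.9%) and protein-coding genes (6.36%).

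A summit close to a miRNA gene may belong to a neighbour, so 5′ ends of protein-coding genes and of other small RNA genes nearer to the summit were looked for. In 24 of the 29 genes no such 5′ end was nearer (82.8%, 64.2 to 94.2%). These 24 were 9.2% of all miRNA genes (5.98 to 13.4%), beside 6.13% of all annotated genes by the same rule, 5.02% of protein-coding genes and 5.38% of piRNA genes. Adding the 5′ ends of other non-coding RNAs and pseudogenes left 23, since the non-coding RNA Y62F5A.16 starts 150 bp from the summit near mir-35 and mir-35 starts 231 bp from it.

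The 5 genes with a nearer neighbour were of several kinds. The summit 221 bp downstream of mir-1829.3 was 78 bp away from where the tRNA gene F39B1.t1 starts and 10 bp from the start of the non-coding RNA F39B1.5. The summit 249 bp from mir-77 lay 67 bp from the snoRNA gene T21B4.20. The piRNA genes 21ur-9765 and 21ur-7526 started 50 bp and 229 bp from the summits assigned to mir-78 and mir-8198, whose own 5′ ends were 224 bp and 264 bp away. The fifth, mir-250, shared its summit with mir-61, which was nearer at 108 bp against 249 bp. The 29 genes therefore stood at 28 different summits.

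**Figure D2:**
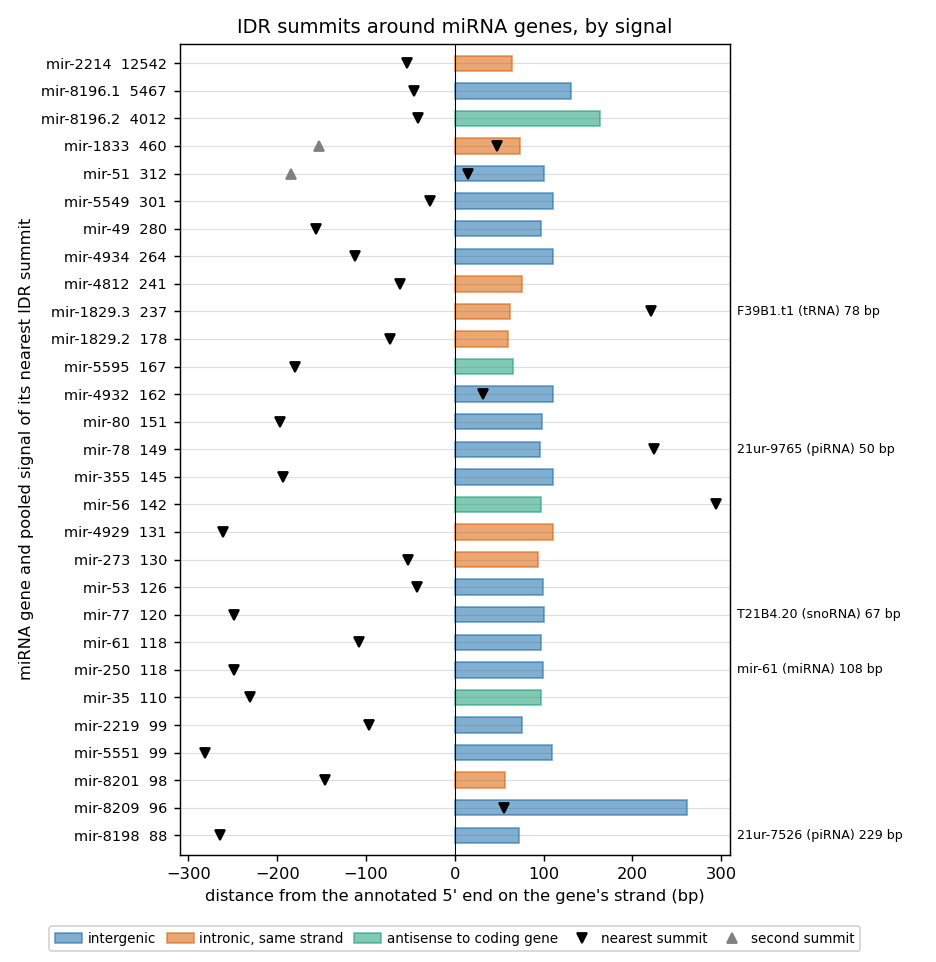
Position of reproducible summits around the 29 miRNA genes, ordered by pooled signal (printed after each name, in the authors' units), in bp from the annotated 5′ end on the strand of the gene. Bars span the annotated gene, coloured by location and drawn up to 310 bp, black triangles mark the assigned summit, grey triangles a second summit in the window, and text on the right names a nearer 5′ end of another gene with its distance from the summit. The 3 strongest summits lie 54, 46 and 42 bp upstream of their genes.

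The signal was very uneven. The median over the 29 genes was 149.4 (interval of the median 119.7 to 241), close to the 164.6 of all 4675 reproducible peaks, and 19 of the 29 ranked after 2000 (65.5%, 45.7 to 82.1%), beside 57.2% of all peaks. Among the first 100 peaks there were 3 genes, and the rest of the first 1000 held only 1 more. The third gene had 8.73 times the signal of the fourth. Without the highest 3, the median was 143.4.

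The highest was mir-2214, which lies in an intron of 774 bp of B0361.11 on the same strand (chrIII:7278715-7278778). Its summit lay 54 bp upstream of the hairpin, with a pooled signal of 12542.2 and rank 27 among all peaks. In replicate 1 the region had a signal of 5678.89 and rank 29, and in replicate 2 a signal of 6919.04 and rank 28. Both replicates thus placed it among their strongest regions. The summit was 1062 bp downstream of the start of B0361.11.

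The next were mir-8196.1 and mir-8196.2, annotated copies that lie far apart on the X chromosome. At mir-8196.1 (chrX:2328994-2329124) the summit lay 46 bp upstream with a pooled signal of 5466.57 and rank 59. Its signal was 2670.88 (rank 62) in replicate 1 and 2844.86 (rank 60) in replicate 2. The summit also falls within the span of the long non-coding RNA linc-154 on the same strand, 2204 bp from the start of that gene.

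At mir-8196.2 (chrX:14324355-14324517), antisense to the peroxisome gene prx-1, the summit lay 42 bp upstream with a pooled signal of 4011.67 and rank 84. Replicate 1 gave 1890.34 (rank 90) and replicate 2 gave 2147.34 (rank 78). Hence the summits of all 3 genes lay 42 to 54 bp before the annotated 5′ end. At mir-2214 the mature 5′ arm starts at that end (chrIII:7278715). For the mir-8196 copies it starts further inside, at chrX:2329038 in mir-8196.1 and chrX:14324470 in mir-8196.2. The distances from summit to mature arm therefore differ between mir-2214 and the copies. For scale, the median signal was 1441 at snRNA genes, 4754 at spliced leader RNA genes and 419.7 at snoRNA genes with a reproducible summit, and the median summit lay at -33 bp for snRNA genes and at -43.5 bp for spliced leader RNA genes, by the same rule.

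The copies mir-8196.1 and mir-8196.2 resemble each other before the annotated 5′ end as well as in the gene. In a global alignment, 80 of 107 columns were identical over the 100 bases before the 5′ end (74.8%), against 64 of 111 (57.7%) over a stretch of 100 bases that starts 400 bases before it and 67.9% over the genes. Upstream of mir-2214 the identity to them was 42% and 42.9%, no higher than its 50% and 43.9% further upstream. Reads from such a pair can be split or shared between copies, and the sources used here do not say how the authors treated them.

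**Figure D3:**
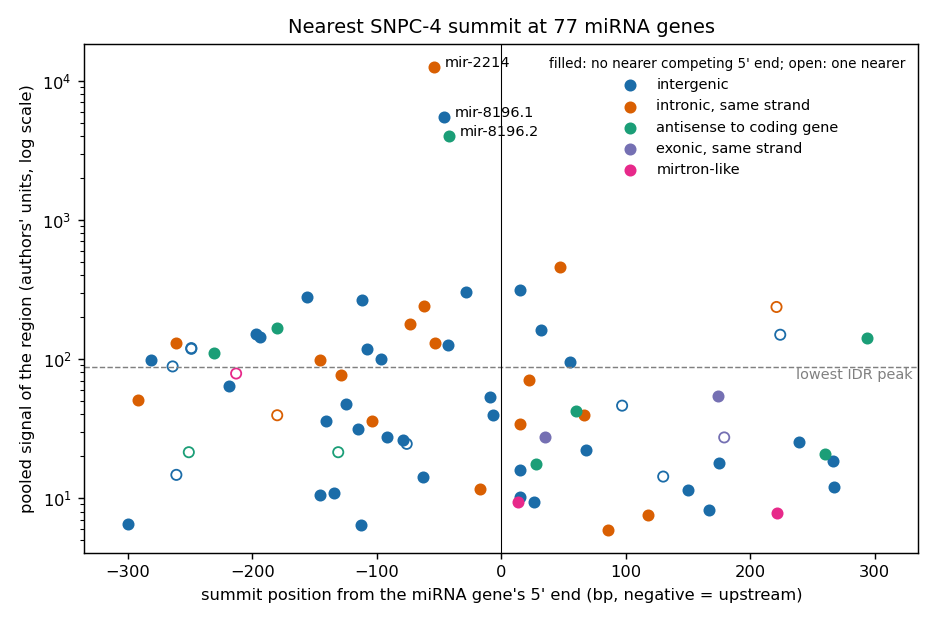
Pooled signal of the nearest summit (authors' units, log scale) against its position from the 5′ end in bp, for the 77 miRNA genes with a reproducible or candidate summit. Colours give the location, open circles a nearer 5′ end of another gene, and the dashed line the lowest reproducible peak; mir-2214, mir-8196.1 and mir-8196.2 stand apart at 4012 to 12542, and all other genes lie at or below 460.

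The remaining reproducible peaks were of ordinary strength. The fourth, mir-1833, lies in an intron of 322 bp of qars-1, which encodes glutaminyl-tRNA synthetase. Its summit was inside the hairpin gene, 47 bp from the 5′ end, with a pooled signal of 459.5 and rank 752 (rank 674 in replicate 1 and 985 in replicate 2). The non-coding RNA gene Y41E3.458 on the other strand covers the same summit and starts 49 bp from it, and a second summit with a signal of 96.8 lay at -153 bp from mir-1833.

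The summit at mir-51 was also inside the gene, 15 bp from the 5′ end, with a pooled signal of 312.5 and signals of 151.1 and 163.6 in replicates 1 and 2 (ranks 1359 and 1200). A weaker second summit of 92.5 lay at -185 bp. At mir-5549 the summit was 28 bp upstream, with 300.6 in the pool, 160.4 in replicate 1 and 144.4 in replicate 2. At mir-49 it was 156 bp upstream, with 280.3 in the pool and 188.4 and 90.6 in the replicates. At mir-4934 it was 112 bp upstream, with 264.4 in the pool and 111.2 and 155.8 in the replicates. These 4 genes are intergenic, and each had ranks between 1060 and 2257 in the replicate lists.

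The other 5 intronic genes with no nearer 5′ end had lower signals. They were mir-4812 in piki-1, a gene for a phosphoinositide 3-kinase (62 bp upstream, signal 241), mir-1829.2 in F20D1.3 (73 bp upstream, 177.7), mir-4929 in E01G4.3 (261 bp upstream, 131.1), mir-273 in the phosphodiesterase gene pde-3 (53 bp upstream, 130.3) and mir-8201 in hil-2, a gene for a linker histone (146 bp upstream, 97.6). The summit of mir-8201 was 193 bp downstream of the hil-2 start, so the miRNA gene was only a little nearer. At the other intronic genes with a reproducible summit the host gene started 811 to 27281 bp from the summit.

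Antisense genes besides mir-8196.2 were mir-5595 within nurf-1, a chromatin remodelling gene (180 bp upstream, 167.5), mir-56 within F09A5.3 (294 bp downstream, 142.1) and mir-35 within Y62F5A.9 (231 bp upstream, 110.1). The intergenic genes not yet described had signals from 88.4 at mir-8198 to 161.9 at mir-4932. Among them, mir-80 (197 bp upstream) had 150.5, mir-355 (194 bp upstream) 144.6, mir-53 (43 bp upstream) 125.9 and the pair mir-61 and mir-250 118.3. The others were mir-78 (149.4), mir-77 (119.7), mir-2219 (99.4), mir-5551 (99) and mir-8209 (95.7).

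All 29 genes had a candidate region over the summit in both replicate lists of 30000 regions. Counting only the strongest 4675 regions of each replicate list, 24 were present in replicate 1, 26 in replicate 2 and 21 in both. The widest disagreement was the summit shared by mir-61 and mir-250, with rank 8856 in replicate 1 and 3145 in replicate 2. Of the 48 genes with only a candidate, 39 had a region over the summit in replicate 1 and 40 in replicate 2. The same shares over all reproducible peaks and all candidates are not given here. These counts therefore do not show whether the replicates differ more or less at miRNA genes than elsewhere.

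**Figure D4:**
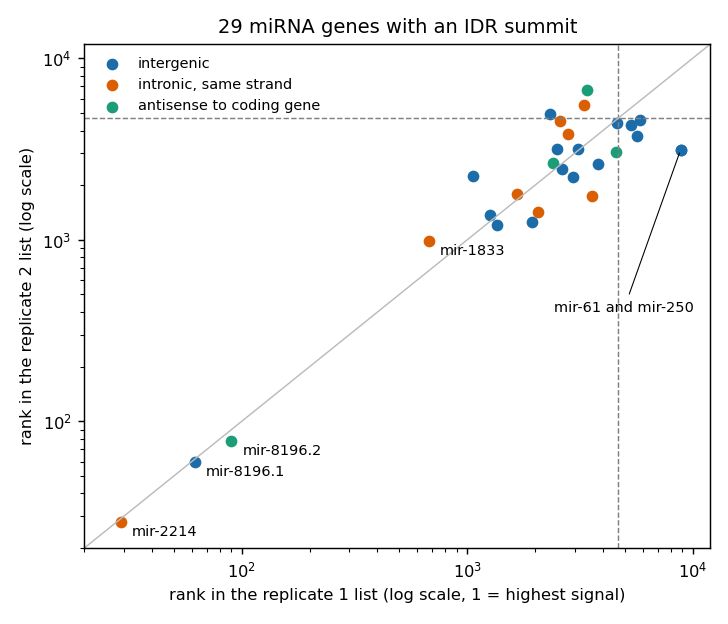
Rank of the region over the summit in the replicate 1 list (x axis) and the replicate 2 list (y axis), both on log scales with 1 the highest signal, for the 29 miRNA genes with a reproducible summit. Dashed lines mark rank 4675 and the diagonal marks equal ranks; mir-2214, mir-8196.1 and mir-8196.2 lie within the first 100 of both lists, mir-1833 within the first 1000, and the others after 1000.

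Reproducible summits lay mostly before the gene. In 22 of 29 genes the summit was upstream of the 5′ end (75.9%, 56.5 to 89.7%), in 4 it was inside the annotated gene and in 3 beyond its 3′ end. The median position was -73 bp (interval of the median -180 to -42 bp). Among the genes with only a candidate, 23 of 48 summits were upstream (47.9%, 33.3 to 62.8%). Upstream shares were 100% at spliced leader RNA genes, 90.7% at snRNA genes, 89.2% at snoRNA genes and 84.7% at protein-coding genes. They were 52.5% at piRNA genes, 28.4% at genes of biotype ncRNA and 36.1% at tRNA genes. The promoters of tRNA genes lie inside the gene.

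Intronic and intergenic miRNA genes had reproducible summits in shares that did not differ beyond their intervals. A reproducible summit was found at 8 of 61 genes that lie within an intron of a protein-coding gene on the same strand (13.1%, 5.84 to 24.2%), and at 17 of 152 genes outside protein-coding genes (11.2%, 6.65 to 17.3%). The intervals overlap over most of their length. With no nearer 5′ end the counts were 7 (11.5%) and 13 (8.55%). Of intron bases in general, 2.16% lay within 300 bp of a reproducible summit, and of bases outside protein-coding genes, 3.79%. Antisense genes had 4 of 33 (12.1%, 3.4 to 28.2%). The median signal was 207.1 at the intronic and 144.6 at the intergenic genes.

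No mirtron-like gene, defined as a hairpin whose ends both lie within 10 bp of the ends of an intron, had a reproducible summit. The count was 0 of 8 genes, with an exact interval of 0 to 36.9%, and taking 3 counts as the limit for a count of 0 allows a share of up to 37.5%. For genes overlapping exons it was 0 of 7, with an exact interval of 0 to 41% and a limit of 42.9% from 3 counts. At this number of genes a share like that of the intronic genes could not be told from none. The 3 mirtron-like genes with a candidate were mir-4920 (signal 78.6, rank 5244), mir-4926 (9.36, rank 25714) and mir-4924 (7.75, rank 27256). The summit near mir-4920 was closer to the start of its host gene sph-1, at 127 bp, than to the miRNA gene at 213 bp. The known mirtrons mir-62, mir-1019 and mir-1020 had no summit, nor did mir-1018, which by this annotation lies in no protein-coding gene.

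Among 34 well-studied miRNA genes named whatever their values, 5 had a reproducible summit, 5 only a candidate and 24 none. Over all miRNA genes the shares were 11.1%, 18.4% and 70.5%. The heterochronic genes lin-4 and let-7, which time larval development, had none. The annotated let-7 gene is 1732 bp long and so includes its primary transcript. In the let-7 family, mir-48 (signal 39.5, rank 10329) and mir-84 (17.8, rank 19161) had candidates and the other 6 of 8 had none. The muscle gene mir-1, the taste neuron gene lsy-6 and mir-237, of the lin-4 family, had no summit.

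The mir-51 family, broadly expressed miRNAs, had a reproducible summit at 3 of 6 genes, beside 11.1% of all miRNA genes. These were mir-51, mir-53 and mir-56, and at mir-56 the summit lay 294 bp downstream, beyond the 3′ end of the gene. A candidate lay at mir-52 (signal 53.7). The nearest reproducible summit to mir-54 was just outside the window, 308 bp upstream, with a signal of 280.3, and mir-55 had no summit in the window. Of the cluster mir-35 to mir-41 and mir-42, miRNAs needed in the embryo, the first gene of the cluster, mir-35, had one, mir-36 and mir-37 shared a candidate of 21.4, and the other 5 had none. In the mir-58 family, related to the fly miRNA bantam, mir-80 had one and mir-58.1, mir-81 and mir-82 had none. Of the other genes with the seed of mir-80, GAGAUCA, mir-58.2 and Y73B6A.17 shared a candidate of 14.3 and mir-2209.1 had no summit. Genes of a family or cluster share sequence or a transcript and do not count as independent.

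At the limits of the rule, mir-5551 (281 bp) and mir-56 (294 bp) were the last genes inside the window, and mir-253 (306 bp, signal 124.7), mir-54 (308 bp) and mir-1819 (313 bp, signal 98.9) were the first outside it. At the threshold on reproducibility, mir-8198 was the lowest inside, with 88.4 and rank 4618, and mir-4920 the highest outside.

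The bases around the summits were searched for TGTCGG on both strands, a motif that is frequent at the strongest SNPC-4 peaks of this same list. Its counts at miRNA genes with strong peaks are therefore a description and no independent evidence. It lay within 100 bp of the summit at 4 of the 28 summits of miRNA genes (14.3%, 4.03 to 32.7%), against 23.3% of all reproducible peaks and 6.38% of the other pooled candidates. These 4 were mir-8196.1, mir-8196.2, mir-273 and mir-2219. Among all peaks ranked 1 to 100 the share was 55%, and among those ranked after 100 it was 22.6%, beside 2 of 25 summits of miRNA genes ranked after 100 (8%, 0.984 to 26%). The same letters in reversed order, GGCTGT, also lay at 2 of these 25 summits, and at 2 of all 28 (7.14%, 0.877 to 23.5%) beside 5.84% of all reproducible peaks.

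At the copies of mir-8196 the motif lay beside the summit but not at the same place. In mir-8196.1 it spanned positions -54 to -49 on the strand of the gene, with the summit at -46. In mir-8196.2 it spanned -38 to -33 on the opposite strand, with the summit at -42, as the capitals in the printed sequences show. No TGTCGG lay within 100 bp of the summit at mir-2214, which has TATA 40 to 15 bases before the hairpin. Such a TATA occurred before 26 of 261 miRNA genes (9.96%), 25.3% of snRNA genes and 15.4% of all annotated genes. In the 100 bases before the 5′ end, TGTCGG was found at 12 of 261 miRNA genes (4.6%), 30.3% of snRNA genes, 40% of spliced leader RNA genes and 1.98% of all genes with sequence. Most of these 12 miRNA genes had no reproducible summit. The counts were 2 of the 3 highest genes and 2 of the other 26 with a reproducible summit. They were 1 of 48 with only a candidate and 7 of 184 with none.

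A second sequence, GGTTCGA, was looked for after the printed upstream stretches had been seen to share it, so its counts only describe these genes. GGTTCGA is the core of the B box, the internal promoter element of tRNA genes, and it occurred in the first 100 bases of 388 of 612 tRNA genes (63.4%). In the 100 bases before the 5′ end, on either strand, it was found at 5 of 261 miRNA genes (1.92%), 14 of 346 snoRNA genes (4.05%), 0.355% of protein-coding genes and 0.493% of all annotated genes. In the printed sequences it does not overlap TGTCGG.

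These 5 miRNA genes were mir-51, mir-4812, mir-1829.2 and mir-1829.3, which had a reproducible summit, and mir-1829.1, which had a candidate. None of the 184 miRNA genes without a summit held it. It spanned positions -48 to -42 in mir-4812 and mir-1829.2, with summits at -62 and -73, and -47 to -41 in mir-1829.3 and mir-1829.1. At mir-1829.3 the nearest reproducible summit was the one at the tRNA gene, 221 bp downstream of the 5′ end, and at mir-1829.1 the candidate of signal 33.9 (rank 11803) lay 15 bp inside the gene. In mir-51 it spanned -52 to -46, with the summit 15 bp inside the gene.

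Within this family the 100 bases before the hairpin were alike in every pair of genes, with identities from 80.4% (mir-1829.3 and mir-4812) to 96% (mir-1829.3 and mir-1829.1). Over the 100 bases that start 400 bases before the 5′ end identities ranged from 50% to 73.6%. As at the mir-8196 copies, reads can be split or shared between such stretches, and their treatment is not stated in the sources used here. No tRNA gene or other competing 5′ end was nearer to the summits of mir-4812, mir-1829.2 and mir-51 than the miRNA gene itself. All 4 family members lie in introns on chromosome X, 2 of them (mir-4812 and mir-1829.3) in piki-1, so they share sequence and partly a host gene. Within 100 bp of the summit, GGTTCGA lay at 4 of 28 summits of miRNA genes (14.3%, 4.03 to 32.7%), beside 6.74% of all reproducible peaks and 1.89% of the other candidates. Among summits with no nearer competing 5′ end it lay at 3 of 24 (12.5%, 2.66 to 32.4%). The GGTTCGA before mir-1829.3 does not enter these counts, because the summit of that gene lay 221 bp downstream of the 5′ end.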

How the data were processed

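According to the labels and a deposited text listing, the authors derived peak lists in ce11 from alignments of each replicate, of the pool and of a control. The lists held 30000 candidate regions per replicate and for the pool, and 4675 pooled peaks past the IDR threshold. The sources used here name no aligner or peak caller. The deposited signal value is the authors' measure of peak strength, with no unit stated, and was not set side by side between lists as a level. The summit is the deposited offset added to the region start. Regions can hold several summits (407 reproducible peaks share their span with another), so peaks are not independent.

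Genes and biotypes came from Ensembl release 115 for WBcel235, and symbols, mature miRNAs (260 of 261 genes have an entry) and sequence from RefSeq of the same assembly. Positions count from 1, and negative positions lie upstream of the 5′ end. Location was set relative to protein-coding genes. The assignment was checked with 200 simulated summits, and it gave the same result as a plain search for all of the genes used. The analysis used Python 3.11.15, numpy 2.4.6, scipy 1.17.1, biopython 1.88 (global alignment) and matplotlib 3.10.9.

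The genes and lists were chosen with earlier results of these data known, so no test was run: counts and medians stand beside the same values over all genes or peaks. Named genes were the 10 with the highest signal, the 15 highest with no nearer 5′ end, the mirtron-like genes with a candidate and the 34 well-studied genes; other members were named to account for every gene with a reproducible summit. Alternatives were other windows, each replicate alone, stronger peaks, other definitions of neighbours, hosts and mirtrons, and other motif distances; a longer upstream window and leaving out the piRNA domains were added after seeing the data. The ce10 lists were not used here.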

Additional observations from a re-analysis of the deposited data

How the results depend on the processing

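The count of 29 miRNA genes with a reproducible summit moved most with the window and the peak threshold. It was 16 within 150 bp (6.13%, beside 7.07% of all genes), all 16 with no nearer 5′ end, against 24 within 300 bp, and 45 within 500 bp (17.2%, beside 15.6%). With 1000 bp upstream to 300 bp downstream, chosen after seeing the data, it was 55 (21.1%, beside 18.7%). With the stronger 50% of the reproducible peaks it was 12 (4.6%, beside 4.64% of all genes), of which 11 had no nearer 5′ end, and the median signal was 290.4. The share of intergenic genes was 5.92% within 150 bp, 14.5% within 500 bp and 3.29% with the stronger peaks. That of intronic genes stayed within its interval, at 9.84%, 22.9% and 8.2% in the same order. It was the higher in each of these settings, and the difference was not tested. With the strongest 4675 regions of a single replicate, the count ranged from 29 to 31, that with no nearer 5′ end from 22 to 26, the intronic share from 13.1% to 16.4%, and the median position from -75 to -59 bp, and the intergenic share was 10.5% in both. The median signal was not recomputed there, because the lists have no common scale. The other alternatives, 34 with the single replicates included, moved a count by at most 1.5 times or left a share or median within its interval. The 34 include the reversed motif GGCTGT, which is a comparison sequence and not a setting. Its share of 7.14% of summits lay within the interval of the TGTCGG share (4.03 to 32.7%).

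No paired analysis was possible because the replicates form 1 group and no test was made. With 29 genes the exact intervals are wide, and the 8 mirtron-like genes are too few to set apart from the intronic ones. Annotated 5′ ends are mostly hairpin ends, and starts of primary transcripts further upstream were not examined. Expression was not measured, and the effect of SNPC-4 on these genes was not tested.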
